A study of Homo sapiens with 18 samples.

Results

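SKM1, HL-60 and MOLM13 are established human acute myeloid leukaemia cell lines, and the data described here are the response to knockdown of BCAT1 in SKM1 set against the response in the other lines. For each gene the log2 difference between cells with a hairpin against BCAT1 (shBCAT1, labelled shBCAT1-3) and cells with a non-targeting hairpin (shNT) was taken in SKM1, and the mean of the same difference in HL-60 and MOLM13, with equal weight, was subtracted from it. This value is called the SKM1 interaction below, and it was computed for 15288 genes over all 18 arrays of the series, 6 of them from SKM1. Each of the 6 groups (SKM1 shBCAT1, SKM1 shNT, HL-60 shBCAT1, HL-60 shNT, MOLM13 shBCAT1 and MOLM13 shNT) had 3 arrays. All cells had received their hairpin by lentiviral transduction and were sorted for transduced cells after 48 h. HL-60 was grown in medium with 10% serum, and SKM1 and MOLM13 in medium with 20% serum. The labels number the replicates but do not say whether they were separate cultures, so the spread behind each p-value may be technical only. A single hairpin against BCAT1 was used and each line is a single line, so an effect of the hairpin and an effect of losing BCAT1 cannot be told apart.

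BCAT1 is the transaminase that handles branched-chain amino acids in the cytosol. It takes the amino group from valine, leucine or isoleucine and passes it to alpha-ketoglutarate, which becomes glutamate, so it links amino acid supply, nitrogen transfer and the alpha-ketoglutarate used by dioxygenases. Myeloid leukaemia lines resemble arrested precursors of granulocytes and monocytes. Such precursors make the proteases and peroxidase of azurophil granules. As they mature they make less of these and more specific granule proteins, Fc receptors and adhesion molecules.

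Intensities were read on 1-colour Illumina arrays, from 200 ng of total RNA, and are given on a linear scale with a median of 92.1 over the whole table. A group whose mean was not above that median is called dim here. Array medians ran from 91.0 to 93.1. Within a group, the correlation between arrays over the brightest probe of each gene was at least 0.990 and at most 0.997. Precision is limited by the number of arrays. The median residual SD on the log2 scale was 0.0819 in SKM1, 0.118 in HL-60 and 0.111 in MOLM13. One MOLM13 shNT array, replicate 1, stood apart from the others, with a weight of 0.387 where array weights were estimated. All lines had the myeloid factors SPI1 (group means from 1715 to 2608) and CEBPA (1691 to 7659), while PTPRC (93.8 to 132.9) and CD14 (82.5 to 121.1) lay near the table's median in all groups. Of 7 erythroid and 7 lymphoid markers, 5 or fewer in any group exceeded the table's median. Many values of any kind exceed a median, so this count does not show that such cells were absent. The brightest of these markers were EPOR (348 in MOLM13 shNT, 112 to 207 in the other groups) and CD3D (412 in MOLM13 shNT and 233 in MOLM13 shBCAT1). EPCAM, an epithelial adhesion protein, had a mean of 1473 in SKM1 shNT and 1208 in SKM1 shBCAT1 and was dim in the other lines. The other 7 epithelial and packaging cell markers were dim in SKM1, and the part of other cells in the results below was not tested.

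The target fell in each line. BCAT1 intensity in SKM1 was 1207, 1239 and 1217 with shNT, and 121, 133 and 127 with shBCAT1. The mean fell from 1221 ± 16.5 to 127 ± 6.05 (SD, n = 3), a 9.62-fold difference. In HL-60 it fell from 1468 ± 10.9 to 145 ± 16.4, and in MOLM13 from 1071 ± 64.7 to 157 ± 14. No shBCAT1 array reached the range of the shNT arrays in any line. The SKM1 interaction of BCAT1 was -0.21 (SE 0.10, limma adjusted p = 0.310) and did not pass the threshold of 0.05. Against MOLM13 alone, the drop of BCAT1 was larger in SKM1 by 0.49 on the log2 scale (difference -0.49, adjusted p = 0.00817), while against HL-60 alone the difference was 0.08 (adjusted p = 0.796). The measured drop of BCAT1 thus differed between SKM1 and MOLM13, and the part of that in the differences below was not tested.

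With equal array weights, SKM1 had fewer called genes than the other lines. At an adjusted p of 0.05, 714 genes were higher with shBCAT1 in SKM1 (4.67% of those tested) and 993 were lower (6.5%). In HL-60, 1531 were higher (10.0%) and 1356 lower (8.87%), and in MOLM13, 1580 were higher (10.3%) and 1639 lower (10.7%). Whether these totals differ was not tested, and with array weights the order of SKM1 and HL-60 turned (1372 higher and 1727 lower in SKM1, 1343 and 1186 in HL-60). The SKM1 interaction was positive and called in 363 genes (2.37%) and negative and called in 642 genes (4.2%). Over all tested genes its median was -0.0076, its 5th percentile -0.355 and its 95th percentile 0.295, and the median SE was 0.113. At the threshold, RRBP1 with an interaction of -0.39 (adjusted p = 0.04975) was just inside and POLE4 with 0.33 (adjusted p = 0.05014) was just outside.

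A called interaction can come from a large response in one of the other lines, so a stricter rule also required the SKM1 difference to exceed or fall below that of HL-60 and that of MOLM13, each past the threshold. By that rule 69 genes responded higher in SKM1 than in both lines (0.451% of those tested) and 200 responded lower (1.31%). Of the 69, SKM1 itself rose in 36, was not called in 32 and fell in 1. Of the 200, SKM1 itself fell in 135, was not called in 63 and rose in 2. These tests share the SKM1 arrays, so the counts describe the genes and are not independent of each other. The interaction was at least 2-fold in 7 of the 69 and in 25 of the 200. Among the 135 genes that fell in SKM1, 19 were dim in both other lines, where little room was left for a fall, as were 2 of the 36 genes that rose. Of all tested genes 3.7% were dim in both other lines. Dim in 1 or both other lines were 46 of the 135 and 16 of the 36, which limits the comparison with that line. Leaving out MOLM13 shNT replicate 1 raised the counts to 96 and 249.

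**Figure D1:**
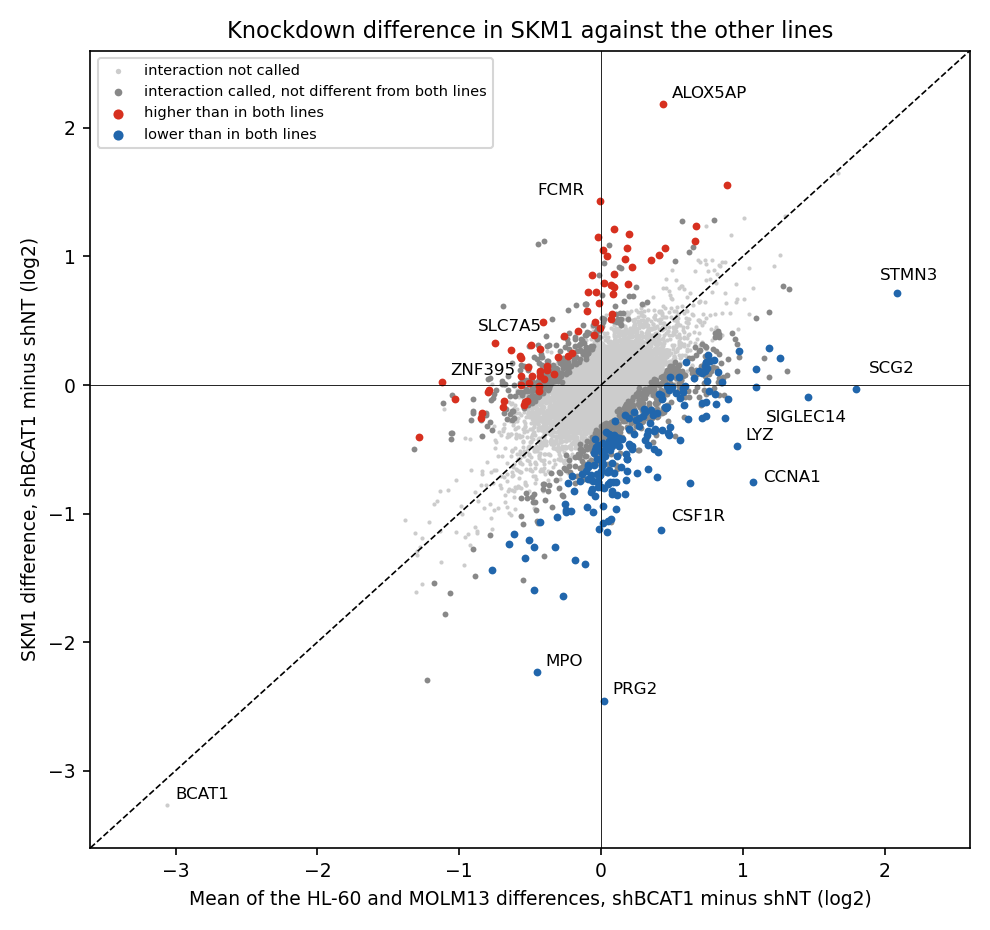
Each point is one of 15288 genes, with the mean knockdown difference of HL-60 and MOLM13 on the horizontal axis and the difference in SKM1 on the vertical axis (both shBCAT1 minus shNT, log2). Red and blue points are the 69 and 200 genes that differed from both lines, dark grey points are other called interactions, and the dashed line marks equal responses. BCAT1 lies near the dashed line, PRG2 and MPO lie far below it with little or no change on the horizontal axis, and ALOX5AP lies far above it.

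Granule protein genes were among those that responded lower in SKM1, and 4 of the 15 named falls were of this kind (PRG2, MPO, RNASE2 and ELANE). Of 17 tested azurophil and eosinophil granule genes, 8 had a lower response in SKM1, 6 of them against both lines (MPO, ELANE, AZU1, RNASE2, LYZ and PRG2), against 4.2% of all genes lower. The list's median difference was -0.30 in SKM1, 0.06 in HL-60 and 0.03 in MOLM13, and the median of all tested genes was between -0.0033 and 0.0015. In SKM1 itself, 7 of the 17 fell and 1, SERPINB1, rose (6.5% and 4.67% of all genes).

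PRG2 encodes the eosinophil granule major basic protein. In SKM1 it read 1218, 1139 and 1156 with shNT and 231, 192 and 219 with shBCAT1. In HL-60 it read 13540, 14110 and 13490 with shNT and 13730, 14010 and 13850 with shBCAT1, and MOLM13 arrays lay between 12230 and 14910 with either hairpin. The SKM1 groups were far apart and the groups of each other line overlapped. PRG2 fell 5.48-fold in SKM1 (-2.45, SE 0.083), and its interaction of -2.47 (SE 0.10, adjusted p = 1.091e-13) was the most negative of the genes named by the rule. The HL-60 and MOLM13 values lie above 10000, where only 0.587% of all values lie, and whether the array still responds linearly there was not tested.

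MPO encodes myeloperoxidase, the main azurophil granule enzyme. In SKM1 it read 11330, 11320 and 12420 with shNT and 2146, 2785 and 2564 with shBCAT1, a 4.7-fold fall. In HL-60 the group means were 14290 ± 118 and 14510 ± 276 (SD, n = 3), with overlapping arrays. MOLM13 had little MPO and lost some of it, from 579, 754 and 720 to 350, 372 and 349. The fall was larger in SKM1 than in MOLM13, and the interaction was -1.78 (SE 0.12, adjusted p = 6.271e-10). Both HL-60 groups and SKM1 shNT lay above 10000, where linearity was not tested.

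ELANE, neutrophil elastase, read 8293, 8463 and 8058 in SKM1 with shNT and 3967, 3763 and 4061 with shBCAT1. It was dim in HL-60 with either hairpin, and in MOLM13 it stayed between 12910 and 14810. Its interaction was -1.09 (SE 0.092, adjusted p = 3.944e-08), set against background levels in HL-60 and levels above 10000 in MOLM13, where a change could be missed. The MOLM13 groups of RNASE2, AZU1 and CFD, described next, also lay above 10000. RNASE2, the eosinophil-derived ribonuclease, moved in opposite directions: it fell in SKM1 from 2009, 1805 and 1778 to 1144, 1129 and 1121, and rose 1.45-fold in HL-60 and 1.2-fold in MOLM13. No group of RNASE2 arrays overlapped its control in any line.

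AZU1, PRTN3, LYZ, BPI and the genes marked so below fall outside the naming rule and were chosen after their values were seen. AZU1, the antimicrobial protein azurocidin, fell in SKM1 from 4118 ± 78.2 to 2107 ± 102 (SD, n = 3) and its groups overlapped in HL-60 and MOLM13. PRTN3, proteinase 3, fell 2.87-fold in SKM1 and 2.16-fold in HL-60 and was level in MOLM13 (11240 ± 100 and 11310 ± 344), so its called interaction of -0.97 came from MOLM13 and it did not differ from both lines. BPI, a bactericidal protein that binds bacterial membranes, fell in SKM1 from 1545 ± 37.5 to 738 ± 50.1 and had overlapping groups elsewhere. LYZ, lysozyme, read 4432, 4324 and 4056 in SKM1 with shNT and 3175, 3021 and 3015 with shBCAT1, a difference of -0.48 that was not called (adjusted p = 0.06484). In HL-60 LYZ rose 2.91-fold, from 166 ± 39.9 to 482 ± 108, and its interaction was -1.44. CFD, the protease complement factor D, had a mean of 3179 in SKM1 shNT and 1883 in SKM1 shBCAT1, with an interaction of -0.86 (adjusted p = 1.237e-06).

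**Figure D2:**
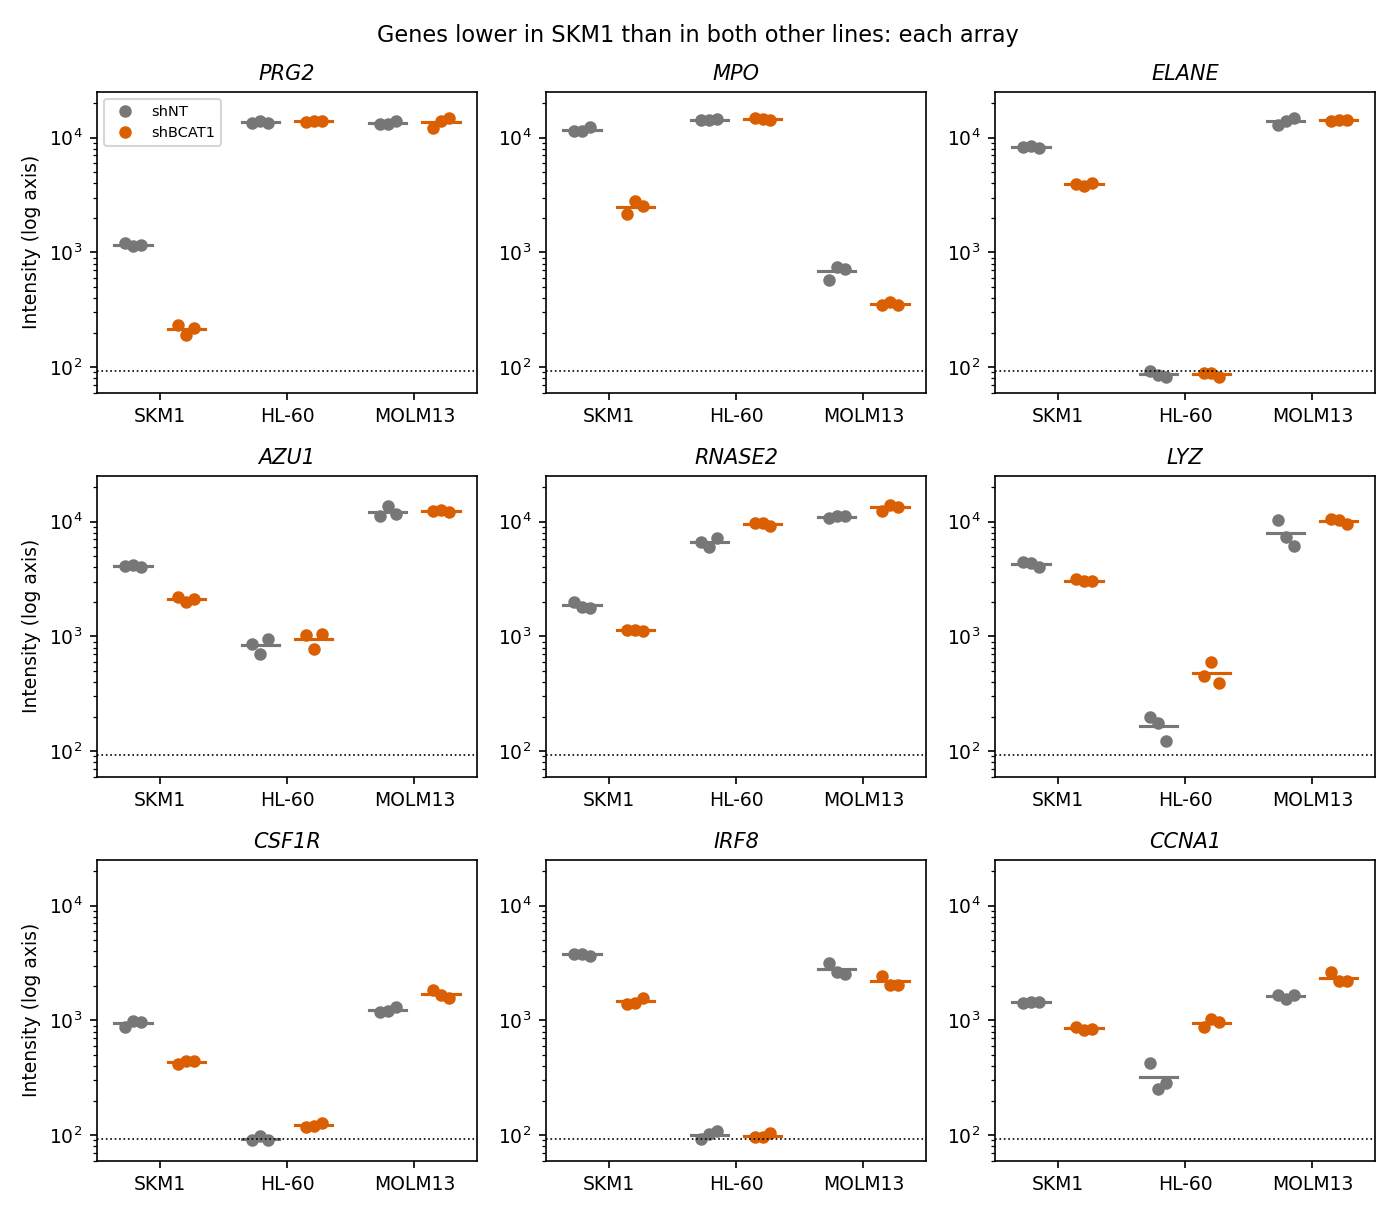
Intensity of 9 genes on each array (points, log axis) by line, with shNT in grey and shBCAT1 in orange. Horizontal bars are group means and the dotted line is the table's median of 92.1. The SKM1 groups are apart in every panel, while PRG2, ELANE and AZU1 overlap between hairpins in HL-60 and MOLM13, and CSF1R, CCNA1 and RNASE2 are higher with shBCAT1 there.

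The promoters of granule genes are known to be bound by C/EBP factors, by PU.1 and by MYB, so the window from 250 bases before to 50 bases after the start was searched on both strands for TTGCNNAA (C/EBP), GAGGAAGT (PU.1) and AACTG (MYB). Of the 8 granule genes with a lower response, 3 had a promoter in the RefSeq table (GRCh38.p14). The TTGCNNAA motif was found in 3 of these 3, against 12.7% of all 27305 genes with a promoter. GAGGAAGT was found in 1 of 3, against 3.15% of all genes, and AACTG in 2 of 3, against 44.6%. These are matches of letters, with no measurement of binding. The windows are AZU1 at chr19:827587-827886 (plus strand), PRTN3 at chr19:840749-841048 (plus strand) and RNASE2 at chr14:20955237-20955536 (plus strand). They are printed 5′ to 3′ with matches to any of the 3 motifs in capitals. No capital stretch holds more than a single motif.
AZU1: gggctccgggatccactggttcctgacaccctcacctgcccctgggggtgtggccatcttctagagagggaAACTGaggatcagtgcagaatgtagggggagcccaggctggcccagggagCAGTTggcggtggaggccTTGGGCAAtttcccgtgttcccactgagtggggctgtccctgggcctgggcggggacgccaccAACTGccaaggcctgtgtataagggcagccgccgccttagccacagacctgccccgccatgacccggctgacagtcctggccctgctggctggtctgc
PRTN3: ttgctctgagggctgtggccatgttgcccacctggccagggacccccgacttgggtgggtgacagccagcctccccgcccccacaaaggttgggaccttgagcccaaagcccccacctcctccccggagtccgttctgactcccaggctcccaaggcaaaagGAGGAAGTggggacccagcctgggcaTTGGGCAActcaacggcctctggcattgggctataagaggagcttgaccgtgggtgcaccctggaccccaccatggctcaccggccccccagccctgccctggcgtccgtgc
RNASE2: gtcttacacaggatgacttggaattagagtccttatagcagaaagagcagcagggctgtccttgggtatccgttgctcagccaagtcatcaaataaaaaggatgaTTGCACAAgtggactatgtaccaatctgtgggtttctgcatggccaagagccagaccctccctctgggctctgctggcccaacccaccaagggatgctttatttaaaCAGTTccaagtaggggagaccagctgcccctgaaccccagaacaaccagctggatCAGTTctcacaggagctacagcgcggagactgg
The TTGCNNAA match began at -111 in AZU1, at -62 in PRTN3 and at -145 in RNASE2, counted from the gene's start. PRTN3 also had a GAGGAAGT match at -88. Among the named genes that fell in SKM1, 2 of 8 with a promoter held TTGCNNAA, 0 held GAGGAAGT and 3 held AACTG. Among those that rose, 2 of 12 held TTGCNNAA, 4 held GAGGAAGT and 5 held AACTG. The motif ACGTG was searched too, and was in 0 of the 3 granule genes, 1 of the 8 and 2 of the 12, against 24.9% of all genes.

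Markers of neutrophils and eosinophils were looked at beside the granule genes. Of 8 neutrophil markers, 7 were above the table's median in both SKM1 groups, and their summed intensity went from 22140 to 22560 in SKM1 shNT arrays to 10440 to 10900 in SKM1 shBCAT1 arrays. In HL-60 the sums were 11570 to 12920 and 10980 to 12290, and in MOLM13 43390 to 46570 and 46920 to 48570. ELANE, PRTN3 and AZU1 are themselves among these markers, and their SKM1 means went from 8271, 8457 and 4118 to 3931, 2950 and 2107. The fall of the sum in SKM1 lies mostly in these genes, so it repeats the granule result. In SKM1 CEBPE went from 1116 to 1274, LTF from 96.3 to 98.4, CAMP from 108 to 110 and LCN2 from 88.3 to 84.2. CTSG, another azurophil protease, was low in SKM1 (155 and 132) and bright in HL-60 (5501 and 5560, shNT first). Of the eosinophil markers, EPX and PRG3 were near or below the table's median in SKM1, while RNASE2 had means of 1864 with shNT and 1131 with shBCAT1. In these bulk samples, fewer cells of a type and less RNA per cell cannot be told apart.

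Some genes of monocytes and some transcription factors that steer myeloid cells also responded lower in SKM1. Of 27 tested monocyte and macrophage genes, 6 had a lower interaction (4.2% of all genes did), 5 of them against both lines (CSF1R, IRF8, FCGR2A, CCR2 and VCAN). VCAN was dim in HL-60 (82.3 with shNT and 90.2 with shBCAT1) and MOLM13 (86.9 and 89.7), where a fall could be missed. The list as a whole did not fall: 12 of the 27 rose in SKM1 and 4 fell (4.67% and 6.5% of all genes). Its median was 0.11 in SKM1, 0.13 in HL-60 and 0.32 in MOLM13. Among 7 monocyte markers, SKM1 means were higher with shBCAT1 for CD86 (473 to 1166), S100A8 (4839 to 5613), FCN1 (221 to 239) and CD14 (82.5 to 94.9). They were lower for IRF8 (3759 to 1465), CSF1R (947 to 434) and VCAN (117 to 88.9). The markers summed to 10290 to 10670 in SKM1 shNT arrays and 8729 to 9624 in SKM1 shBCAT1 arrays. Of 19 tested myeloid transcription factors, 7 had a lower interaction and 1, EGR1, a higher one (4.2% and 2.37% of all genes). In SKM1 6 fell and EGR1 rose (6.5% and 4.67% of all genes). IRF8, MYB, NFE2, GFI1 and CEBPD differed from both lines.

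CSF1R encodes the receptor for macrophage colony-stimulating factor. In SKM1 it read 881, 995 and 966 with shNT and 419, 440 and 442 with shBCAT1, a 2.18-fold fall. In MOLM13 it read 1179, 1207 and 1303 with shNT and 1828, 1664 and 1559 with shBCAT1, a 1.37-fold rise, and in HL-60 it rose from 93.0 ± 4.24 to 122 ± 4.55 (SD, n = 3). SKM1 and both other lines moved in opposite directions, with no overlap of arrays in any line and an interaction of -1.55 (SE 0.096, adjusted p = 3.053e-10).

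IRF8, a transcription factor of monocyte and dendritic cell precursors, read 3827, 3802 and 3648 in SKM1 with shNT and 1404, 1429 and 1563 with shBCAT1. In MOLM13 it fell 1.27-fold, and in HL-60 it lay near the table's median with either hairpin (101 ± 8.05 and 99.1 ± 4.15). The interaction was -1.18 (SE 0.11, adjusted p = 3.23e-07). MYB, a factor of immature haematopoietic cells, fell in SKM1 from 3328, 3591 and 3822 to 1707, 1762 and 1992, and its groups overlapped in HL-60 and MOLM13 (interaction -0.76). NFE2, a factor of the erythroid and megakaryocytic lineages that granulocytic cells also express, fell 1.31-fold in SKM1 and rose 1.57-fold in HL-60 and 1.24-fold in MOLM13. BCL11A fell in all lines, by 1.78 in SKM1, 1.67 in HL-60 and 0.53 in MOLM13 on the log2 scale, so its interaction of -0.69 reflects the smaller fall in MOLM13.

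Other transcription factors had smaller interactions. Among those chosen after their values were seen, GFI1, a repressor needed for granulocytes, fell by 0.48 in SKM1 and did not pass in the other lines. CEBPD fell by 0.28 in SKM1, with differences of 0.10 in HL-60 and 0.10 in MOLM13 that were not called. CEBPB rose by 0.48 in HL-60 and 0.58 in MOLM13 and was not called in SKM1 (0.12). CCR2, the receptor that draws monocytes to chemokine, fell in SKM1 from 216 ± 6.83 to 120 ± 8.06 and had overlapping groups elsewhere. The array holds 10 probes for CCR2, most of them near the table's median, and the next brightest probe gave -0.85 against -0.92 for the probe used.

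In 11 genes SKM1 moved past the threshold one way and both other lines the other way, and 8 of them are named, among them CSF1R, RNASE2 and NFE2. The number was 6 without SKM1 shNT replicate 3, and 7 without MOLM13 shBCAT1 replicate 1 or 2 or MOLM13 shNT replicate 2 or 3, and 17 with the replicate number as a block. CCNA1, a cyclin of germ cells and myeloid leukaemia cells, read 1424, 1448 and 1435 in SKM1 with shNT and 874, 834 and 846 with shBCAT1. In HL-60 it rose from 426, 255 and 287 to 879, 1024 and 964, and in MOLM13 it rose 1.45-fold. SKM1 lost it while both other lines gained it, giving an interaction of -1.82 (SE 0.15, adjusted p = 2.748e-08). IGFBP7, a secreted protein that binds growth factors, fell 1.7-fold in SKM1 and rose 1.98-fold in MOLM13 and 1.21-fold in HL-60 (interaction -1.39). STING1, the adaptor of cytosolic DNA sensing, fell 1.44-fold in SKM1 and rose 1.35-fold in HL-60 and 1.29-fold in MOLM13. TAP1, the peptide transporter of antigen presentation, fell from 2165, 2128 and 2247 to 1461, 1641 and 1636 in SKM1 and rose 1.19-fold in HL-60 and 1.33-fold in MOLM13. POLR3G, a subunit of RNA polymerase III, was the reverse case, with a 1.4-fold rise in SKM1 and falls of 1.37-fold in HL-60 and 1.29-fold in MOLM13. Its 2 other, dimmer probes gave interactions of 0.08 each against 0.90 for the probe used.

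The remaining genes named among the falls were not granule or monocyte genes. BEND5, a protein with a BEN domain, fell 3.12-fold in SKM1 from 743 ± 52.6 to 238 ± 10.7, fell 1.54-fold in MOLM13 and was dim in HL-60. TMEM45A, a transmembrane protein gene in the list of hypoxia factor targets, fell 3.01-fold in SKM1 and 1.73-fold in MOLM13 and was not called in HL-60. NUDT7, a peroxisomal coenzyme A hydrolase, read 755, 770 and 833 with shNT and 337, 251 and 318 with shBCAT1 in SKM1. It had overlapping groups in both other lines, though its second probe, near the median of the table, gave an interaction of 0.03. GPC4, a heparan sulfate proteoglycan, fell 2.21-fold in SKM1 and was dim in both other lines. HBBP1, a globin pseudogene that may share signal with other globins, went from 203 ± 6.90 to 98.2 ± 4.18 in SKM1, and LINC00926 and DCANP1 fell 2.09-fold and 2.18-fold there. For LINC00926 and DCANP1 the arrays overlapped between hairpins in both HL-60 and MOLM13. Over the 15 named falls, interactions ranged from -1.09 to -2.47, with SE from 0.092 to 0.174 and the largest adjusted p at 0.000228.

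The largest rise in SKM1 among the named genes, relative to the other lines, was that of ALOX5AP. It encodes the 5-lipoxygenase activating protein, which presents arachidonate for leukotriene synthesis. In SKM1 it read 372, 399 and 399 with shNT and 1891, 1879 and 1561 with shBCAT1, a 4.54-fold rise. The other lines started far higher: HL-60 went from 7677 ± 595 to 12350 ± 936 (SD, n = 3), and MOLM13 from 10730 ± 320 to 12270 ± 1020, which was not called. Arrays with shBCAT1 were above those with shNT in every line, and SKM1 with shBCAT1 stayed below every array of the other lines. The interaction was 1.74 (SE 0.11, adjusted p = 3.128e-10), with the HL-60 and MOLM13 values near or above 10000, where linearity was not tested.

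FCMR, the Fc receptor for IgM, read 191, 176 and 160 in SKM1 with shNT and 476, 466 and 476 with shBCAT1, and it was dim in HL-60 and overlapped between hairpins in MOLM13. SPP1, the secreted protein osteopontin, rose in SKM1 from 1799, 1953 and 1773 to 4026, 4274 and 3959. In HL-60 and MOLM13 no SPP1 array exceeded 107.9, close to the median of the table. FCMR and SPP1 groups in SKM1 were well apart, with interactions of 1.44 and 1.17. A second SPP1 probe also gave 1.17.

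The other named rises were smaller. AP3B2, a subunit of a vesicle coat adaptor, rose 2.31-fold in SKM1, GNG11, a G protein gamma subunit, 2.07-fold, and RGS2, a regulator that shortens G protein signals, 2.1-fold. ADORA3, an adenosine receptor, rose 2-fold, RIPOR2 1.98-fold and CYP1A1, a target of the aryl hydrocarbon receptor, 1.82-fold. FPR2, a receptor for formyl peptides and annexin A1, read 149, 150 and 154 with shNT and 259, 271 and 255 with shBCAT1 in SKM1 and was dim in both other lines. CCL3L1, a chemokine gene with a near-identical copy in CCL3 whose signals may mix, rose 1.81-fold in SKM1 and 1.27-fold in HL-60 and fell 1.39-fold in MOLM13. MTHFS, an enzyme of folate metabolism, rose 1.66-fold in SKM1 and was not called in the others. LRP8, a lipoprotein receptor, rose 1.24-fold in SKM1 and fell 1.74-fold in MOLM13, and its dimmer probe gave an interaction of 0.11 against 0.80. MT1E, a metallothionein, rose 2.26-fold, but its near-identical family members may share its signal and its other probe, near the table's median, gave -0.25 against 0.98. Over the 15 named rises, interactions ranged from 0.77 to 1.74, with SE from 0.092 to 0.126 and the largest adjusted p at 6.901e-05.

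The lists that hold these genes moved both ways. Of 17 tested leukotriene, prostaglandin and annexin genes, 4 had a higher interaction in SKM1 (ALOX5AP, FPR2, ANXA1 and PTGS2), against 2.37% of all genes. Another 4 had a lower one (PTAFR, TBXAS1, LTC4S and ANXA2), against 4.2% of all genes. This lower count of 4 became 2 without SKM1 shBCAT1 replicate 3. ANXA1, annexin A1, an anti-inflammatory ligand of FPR2, rose in all lines, by 1.56 in SKM1, 1.05 in HL-60 and 0.73 in MOLM13 on the log2 scale. The platelet activating factor receptor PTAFR instead rose 1.45-fold in HL-60 and 2.25-fold in MOLM13 and stayed near the table's median in SKM1 (arrays from 86.1 to 102.9). Of 30 tested NF-kB and inflammatory genes, 5 had a higher interaction (CCL3, CCL5, CCL20, IL1B and PTGS2) and 2 a lower one (CCL2 and IER3). These were 16.7% and 6.67% of the list, against 2.37% and 4.2% of all genes, and PTGS2 differed from both lines. Single arrays moved these counts to as few as 3 higher (without SKM1 shBCAT1 replicate 1 or 2 or SKM1 shNT replicate 1 or 3) and 1 lower (without SKM1 shBCAT1 replicate 2 or 3, SKM1 shNT replicate 2 or 3 or MOLM13 shNT replicate 2). CCL3 rose 1.55-fold in SKM1, with overlapping groups in the other lines. PTGS2, the inducible cyclooxygenase, rose by 0.56 in SKM1 and was not called elsewhere. CCL20, chosen after its values were seen, rose by 0.91 in SKM1 and 0.81 in HL-60 and fell by 0.56 in MOLM13.

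**Figure D3:**
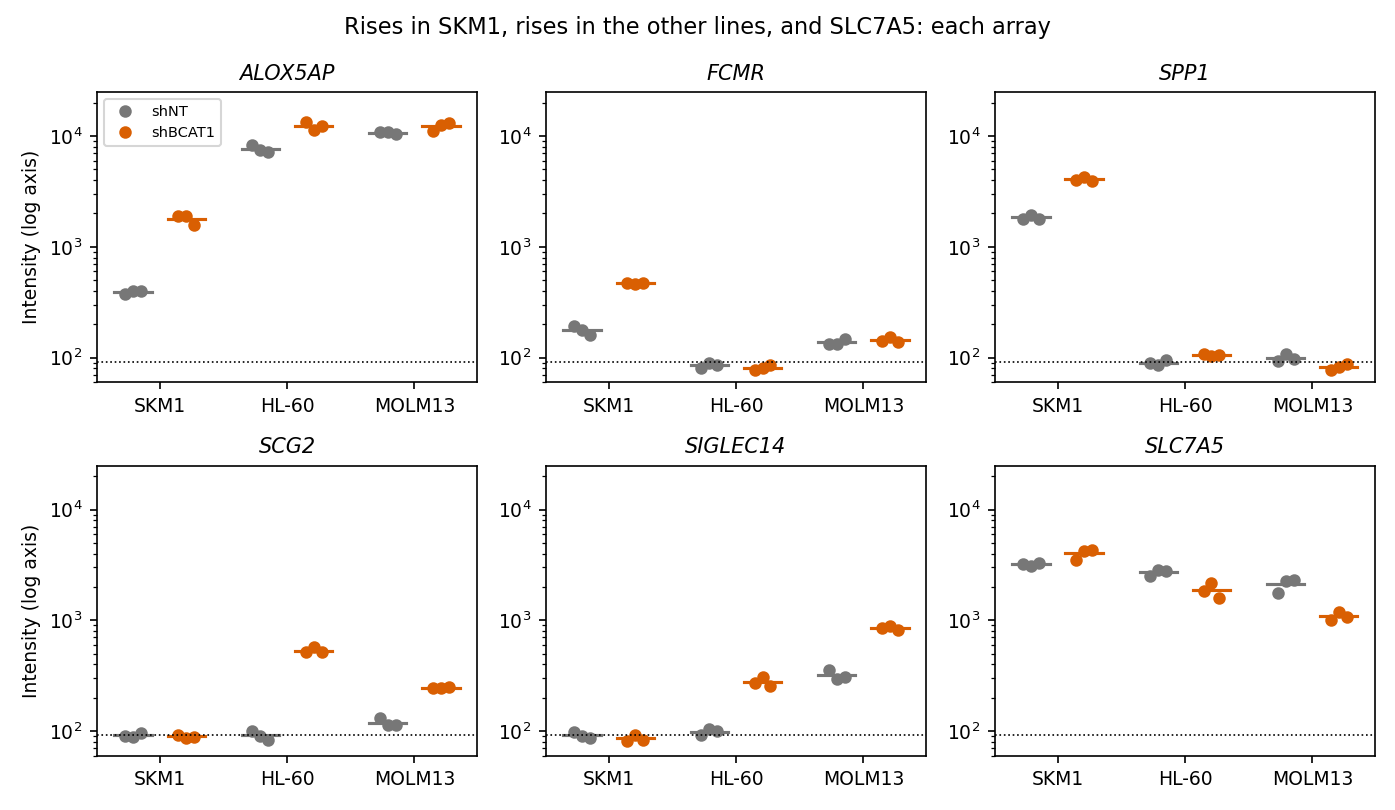
Intensity of 6 genes on each array (points, log axis) by line, with shNT in grey and shBCAT1 in orange, bars at group means and a dotted line at the table's median of 92.1. ALOX5AP, FCMR and SPP1 are higher with shBCAT1 in SKM1. SCG2 and SIGLEC14 are higher with shBCAT1 in HL-60 and MOLM13 and level in SKM1, and SLC7A5 is lower with shBCAT1 in HL-60 and MOLM13.

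A set of 55 genes rose in HL-60 and MOLM13, was not called in SKM1, and differed from both. SCG2, a secreted granin, read 101, 90.0 and 83.2 in HL-60 with shNT and 514, 570 and 516 with shBCAT1. In MOLM13 it rose from 130, 114 and 113 to 243, 244 and 250, and in SKM1 it was dim with either hairpin (91.6 ± 4.30 and 89.6 ± 3.07). Its groups did not overlap in HL-60 or MOLM13 and overlapped in SKM1, with an interaction of -1.83 (SE 0.10, adjusted p = 3.931e-11). SIGLEC14, an activating sialic acid receptor of myeloid cells, rose 2.83-fold in HL-60 and 2.67-fold in MOLM13 and was dim in SKM1. OLIG1, a basic helix-loop-helix factor, behaved alike, with rises of 2.43-fold and 1.88-fold and dim values in SKM1. For these 3 genes a lack of change in SKM1 is also a lack of signal.

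FCGR2A, RHOU, CYTH4, RASSF4 and P2RX1 were measured above the table's median in SKM1 and did not pass there. FCGR2A, an Fc receptor for IgG, read 338, 356 and 377 in SKM1 with shNT and 328, 335 and 328 with shBCAT1. It rose 2.45-fold in HL-60 and 1.41-fold in MOLM13. RHOU, a small GTPase, rose 2.21-fold in HL-60 and 2.6-fold in MOLM13, while SKM1 went from 1598 ± 57.9 to 1849 ± 75.8 (SD, n = 3), a difference of 0.21 that was not called. CYTH4, an exchange factor for ARF proteins, rose 2.53-fold in HL-60 and 1.33-fold in MOLM13, the latter with overlapping arrays. RASSF4, a protein with a RAS association domain, rose 1.9-fold and 1.47-fold, though its second probe gave an interaction of 0.01. P2RX1, an ion channel opened by ATP, rose 1.47-fold in each, and its HL-60 mean of 195 ± 80.5 with shBCAT1 rested on arrays of 151, 146 and 288.

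Lysosome genes rose mainly in the other lines. Of 37 tested lysosome and autophagy genes, 14 had a lower interaction, against 4.2% of all genes, and 5 of them differed from both lines (LAMP2, CTSA, WIPI1, GLA and CTSH, the last pair chosen after their values were seen). The 14 became 8 or 9 without HL-60 shBCAT1 replicate 1, SKM1 shBCAT1 replicate 1, SKM1 shNT replicate 2 or 3 or MOLM13 shNT replicate 2. In HL-60 23 rose and in MOLM13 24, against 7 in SKM1 (10.0%, 10.3% and 4.67% of all genes rose), and the median difference was 0.32, 0.38 and 0.06 in the same order. FUCA1, a lysosomal fucosidase, rose 3.43-fold in MOLM13 and 1.5-fold in HL-60, and in SKM1 it read 321, 332 and 365 with shNT and 362, 337 and 361 with shBCAT1. LAMP2, a lysosomal membrane protein, went from 424 ± 43.7 to 666 ± 66.7 in HL-60 and from 1915 ± 397 to 3361 ± 46.4 in MOLM13. In SKM1 LAMP2 arrays overlapped (1682 ± 59.4 and 1540 ± 89.9), and its 5 other probes gave interactions from -0.94 to -0.26. CTSA, a lysosomal carboxypeptidase, and WIPI1, an autophagy protein, rose by 0.70 and 0.57 in HL-60 and by 0.84 and 0.59 in MOLM13, and neither was called in SKM1 (0.19 and -0.03). CTSD, chosen after its values were seen, rose in all lines, by 0.57 in SKM1 and by 1.12 and 1.24 in HL-60 and MOLM13.

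Of 33 tested adhesion and migration genes, 13 had a lower interaction (4.2% of all genes did) and 1, TIMP1, a higher one (2.37% did). In SKM1 11 of the 33 rose, in HL-60 17 and in MOLM13 13 (4.67%, 10.0% and 10.3% of all genes rose). The counts of SKM1 and MOLM13 were thus close. Of the 13, 4 differed from both lines (PLAU, ITGAL, CD44 and CCR2). PLAU, the urokinase plasminogen activator, fell 1.66-fold in SKM1 and rose 1.23-fold in HL-60. ITGAL, the alpha chain of a leukocyte integrin, fell in SKM1 from 1252, 1178 and 1220 to 670, 751 and 747, with overlapping arrays in HL-60 and MOLM13. CD44, the hyaluronan receptor, fell 1.27-fold in SKM1 and rose 1.43-fold in HL-60 and 1.27-fold in MOLM13. Of 11 tested specific granule and S100 genes, 4 had a lower interaction, against 4.2% of all genes, and of these only SLPI differed from both lines. The 4 became 7 without MOLM13 shNT replicate 1. Of these 4, S100A8, HP and CAMP rose in MOLM13, by 2.15, 1.86 and 1.39, with SKM1 differences of 0.21, 0.08 and 0.02 that were not called. SLPI, a protease inhibitor, fell 1.56-fold in SKM1, and rose 1.19-fold in MOLM13.

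A set of 29 genes fell in HL-60 and MOLM13, was not called in SKM1, and differed from both, and amino acid genes were among them. This number fell to between 13 and 19 without SKM1 shBCAT1 replicate 1, 2 or 3 or SKM1 shNT replicate 2 or 3. SLC7A5 is the light chain of the large neutral amino acid transporter, which carries leucine and other BCAT1 substrates. In SKM1 it read 3246, 3082 and 3268 with shNT and 3527, 4204 and 4328 with shBCAT1, a difference of 0.32 that was not called (adjusted p = 0.06757). In HL-60 it fell from 2489, 2864 and 2801 to 1844, 2171 and 1601, and in MOLM13 from 1775, 2253 and 2321 to 1001, 1180 and 1077. SKM1 arrays with shBCAT1 lay above their controls and those of both other lines lay below theirs, with an interaction of 1.08 (SE 0.14, adjusted p = 2.005e-05).

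Among genes driven by ATF4, which cells make when amino acids are short, some showed the same contrast and most called ones differed from 1 line only. Of 40 tested ATF4 targets, 14 had a higher interaction in SKM1 and 1 a lower one, against 2.37% and 4.2% of all genes. The 14 became 8 without SKM1 shBCAT1 replicate 3, 26 without MOLM13 shNT replicate 1 and 22 with the replicate number as a block. In HL-60 21 of the 40 fell and in MOLM13 29, while in SKM1 2 fell and none rose (8.87%, 10.7% and 6.5% of all genes fell). The median difference was 0.02 in SKM1, -0.30 in HL-60 and -0.52 in MOLM13. Of the 14, SLC7A5, ASNS and SLC3A2 differed from both lines, and CEBPB was the gene with a lower interaction. Against HL-60 alone, TRIB3, SLC7A1, DDIT3, PHGDH, MTHFD2, SLC1A5, CBS, GARS1 and PCK2 did not pass. IARS1 and EIF4EBP1 did not pass against MOLM13 alone.

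ASNS, asparagine synthetase, read 3396, 2942 and 2935 in SKM1 with shNT and 3506, 3471 and 3740 with shBCAT1. It fell in HL-60 from 5249, 5095 and 5385 to 3912, 3532 and 4368, and 1.64-fold in MOLM13, and its interaction was 0.78 (SE 0.16, adjusted p = 0.00345). TRIB3, a pseudokinase that dampens the response, had an interaction of 1.31 (SE 0.25, adjusted p = 0.001698), with a 2.1-fold fall in MOLM13 and differences in SKM1 (0.61) and HL-60 (-0.32) that were not called. SLC3A2, the heavy chain that partners SLC7A5, had differences of 0.28 in SKM1, which was not called, -0.28 in HL-60 and -0.57 in MOLM13. SLC7A1, a carrier of arginine and lysine, was not called in SKM1 (-0.12) and fell by 0.43 in HL-60 and 1.11 in MOLM13. Chosen after their values were seen, the serine synthesis enzyme PHGDH and the folate enzyme MTHFD2 had interactions of 0.61 and 0.81. PHGDH fell by 1.00 in MOLM13 and was not called in HL-60 (-0.12).

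The composite element that ATF4 binds with C/EBP partners was searched as TGATGNAA on both strands in the same promoter windows, a motif added after the values were seen. It was found in 6 of 13 genes with a promoter among the 14 with a higher interaction (46.2%), and in 12 of 33 among all tested ATF4 targets (36.4%), against 4.46% of all genes with a promoter. The list consists of known targets of this factor, so the share describes the list. The windows of ASNS at chr7:97872359-97872658 (minus strand) and SLC3A2 at chr11:62881449-62881748 (plus strand, RefSeq, GRCh38.p14) are shown 5′ to 3′ because these genes are the synthetase and the transporter subunit of the contrast. Capitals mark the TGATGNAA match, at -68 in ASNS and at 37 in SLC3A2 on the other strand.
ASNS: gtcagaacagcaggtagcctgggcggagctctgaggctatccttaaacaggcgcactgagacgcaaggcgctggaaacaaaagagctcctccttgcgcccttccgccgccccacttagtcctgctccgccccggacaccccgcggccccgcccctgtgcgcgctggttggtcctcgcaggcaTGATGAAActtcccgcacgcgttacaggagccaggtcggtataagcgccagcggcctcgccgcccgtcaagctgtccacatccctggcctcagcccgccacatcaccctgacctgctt
SLC3A2: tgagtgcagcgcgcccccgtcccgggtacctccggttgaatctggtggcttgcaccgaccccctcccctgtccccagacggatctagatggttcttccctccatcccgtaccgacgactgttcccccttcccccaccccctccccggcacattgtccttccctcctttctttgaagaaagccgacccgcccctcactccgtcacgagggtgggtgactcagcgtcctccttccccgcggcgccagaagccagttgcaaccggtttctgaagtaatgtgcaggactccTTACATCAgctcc

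**Figure D4:**
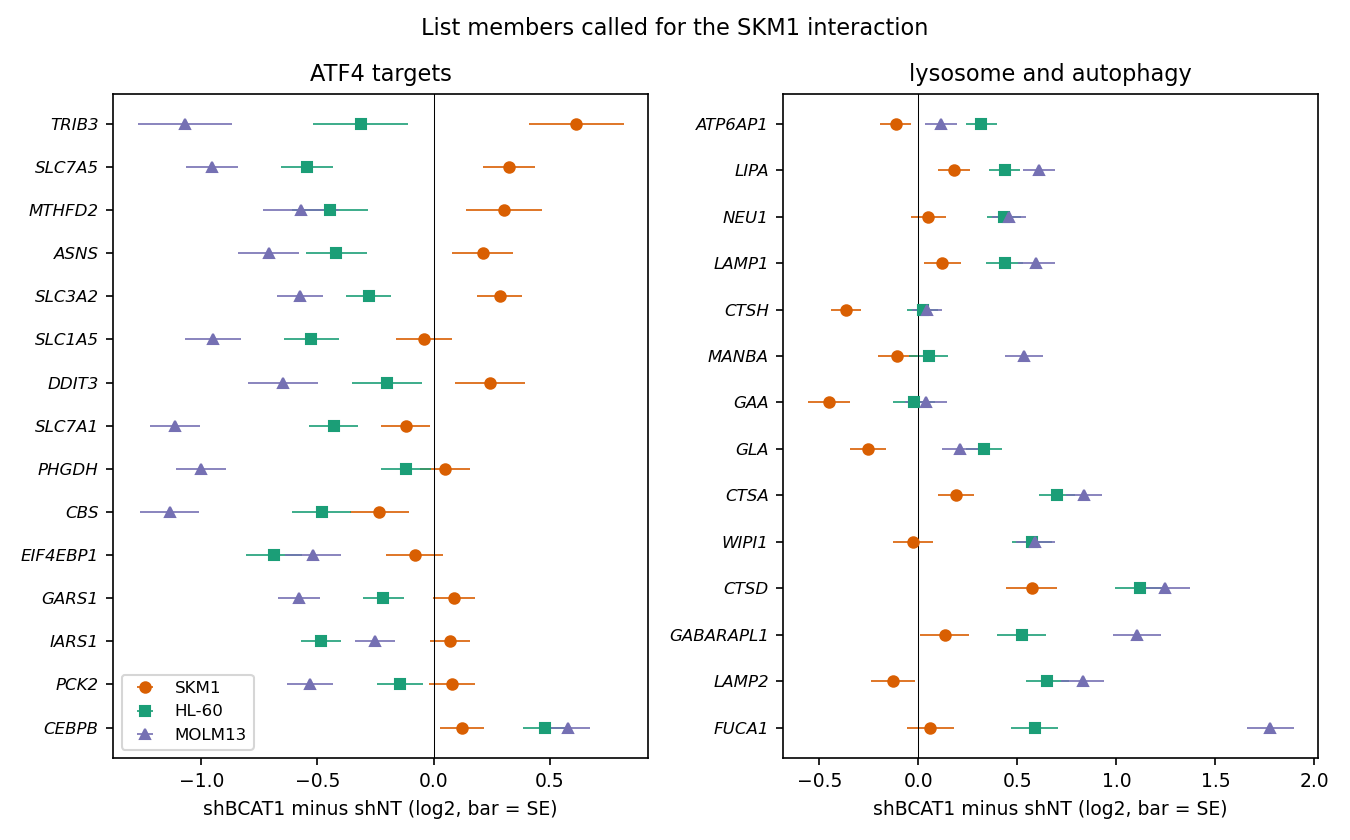
Knockdown difference (shBCAT1 minus shNT, log2) in each line for the members of the ATF4 target list and of the lysosome and autophagy list whose SKM1 interaction was called, with bars of 1 SE. SKM1 points lie near 0 or above for most ATF4 targets, where HL-60 and MOLM13 lie below 0, and near 0 for most lysosome genes, where HL-60 and MOLM13 lie above.

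The other genes that fell in both other lines and were not called in SKM1 had varied roles. ZNF395, a zinc finger protein gene, fell 1.53-fold in HL-60 and 3.1-fold in MOLM13, where it was far brighter (3573 ± 643 with shNT, SD, n = 3) than in SKM1 (123 ± 4.39). Its interaction was 1.15 (SE 0.14, adjusted p = 1.182e-05). IGLL1, the surrogate light chain of early B cells, fell 2.32-fold and 1.8-fold and was dim in SKM1. BATF3, a dendritic cell factor, fell 1.84-fold and 1.31-fold, while SKM1 arrays read 108, 105 and 109 with shNT and 127, 131 and 131 with shBCAT1, which was not called. RFC4, a clamp loader subunit of DNA replication, SKA3, a kinetochore protein, and UNG, a uracil glycosylase, fell 1.3-fold, 1.55-fold and 1.52-fold in HL-60 and 1.7-fold, 1.91-fold and 1.98-fold in MOLM13. Both dimmer probes of UNG gave interactions near 0, and with the mean of its probes UNG was no longer called (0.24, adjusted p = 0.0606).

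Cell cycle genes set SKM1 apart from MOLM13 rather than from both lines. Of 44 tested DNA replication and G1/S genes, 25 had a higher interaction (56.8%, against 2.37% of all genes), of which RFC4 and UNG differed from both lines. The 25 became 12 to 16 without SKM1 shBCAT1 replicate 2 or 3 or SKM1 shNT replicate 1 or 2. In MOLM13 36 of the 44 fell, with a median of -0.84, against 12 in HL-60 and 5 in SKM1, with medians of -0.14 and -0.06. In the same order, 10.7%, 8.87% and 6.5% of all genes fell. E2F2, a transcription factor of G1/S genes, fell by 1.26 in MOLM13, with -0.09 in HL-60 and 0.01 in SKM1, neither called. Of 42 tested mitosis and G2/M genes, 9 had a higher interaction by limma (2.37% of all genes did). In MOLM13 35 fell, in HL-60 19 rose and in SKM1 2 rose, KIF23 and FOXM1 (10.7%, 10.0% and 4.67% of all genes). The 9 became 2 to 5 without SKM1 shBCAT1 replicate 2 or 3 or any SKM1 shNT array, and 14 without MOLM13 shNT replicate 1. By the rule that asks for a difference from each line, 0 of the 42 were called. FOXM1, a mitotic transcription factor, rose by 0.30 in SKM1 and 0.33 in HL-60 and fell by 0.83 in MOLM13. Of 39 MYC targets, 6 had a higher interaction (2.37% of all genes did) and RRP12 and PPAT differed from both lines. The 6 became 3 without SKM1 shBCAT1 replicate 1 or 2, SKM1 shNT replicate 2 or 3 or MOLM13 shNT replicate 2, and 10 with the replicate block. In this list 7 genes fell in SKM1, 25 in HL-60 and 24 in MOLM13. PPAT, the enzyme of the committed step of purine synthesis, fell by 0.49 in HL-60 and 0.48 in MOLM13 and was not called in SKM1 (0.07).

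Immediate early genes gave a large value with a wide error. EGR1, an immediate early transcription factor, read 303, 282 and 246 in SKM1 with shNT and 636, 599 and 541 with shBCAT1. HL-60 shNT arrays read 1391, 511 and 475, and MOLM13 fell 3.27-fold. The interaction was 1.55 (SE 0.34, adjusted p = 0.005476), and against HL-60 alone it was 0.28 (adjusted p = 0.768), so it came from MOLM13. The call was lost with trended robust variances (adjusted p = 0.0606). Of the 30 tested genes of that list, 2 had a higher interaction (EGR1 and ETV4) and 1 a lower one (IER3). These were 6.67% and 3.33% of the list, against 2.37% and 4.2% of all genes. With the replicate block 6 had a higher one.

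Of 40 tested hypoxia factor targets, 18 fell in SKM1, 13 in HL-60 and 26 in MOLM13 (6.5%, 8.87% and 10.7% of all genes fell). A lower interaction was called in 5 (12.5%, against 4.2% of all genes), of which TMEM45A and PLOD2 differed from both lines. Leaving out SKM1 shBCAT1 replicate 1, 2 or 3 or SKM1 shNT replicate 2 or 3 gave 2 or 3 in place of 5. PFKFB4, an enzyme that tunes glycolysis, fell 4.92-fold in SKM1, from 780, 1234 and 1203 to 216, 218 and 207, and 1.69-fold and 3.24-fold in HL-60 and MOLM13. Its interaction of -1.07 (SE 0.30, adjusted p = 0.03237) was lost without SKM1 shNT replicate 2 (adjusted p = 0.115) or 3 (0.112), and also without any SKM1 shBCAT1 array (0.0696 to 0.0812). It was lost as well without HL-60 shBCAT1 replicate 2 (0.0507) or MOLM13 shBCAT1 replicate 2 (0.0517). PLOD2, a collagen lysyl hydroxylase, fell 1.63-fold in SKM1 and had overlapping arrays near the median of the table elsewhere. Of 24 glycolysis genes, 1 had a higher interaction, PFKFB2, and 1 a lower one, PFKFB4. Each is 4.17% of the list, near the shares of all genes (2.37% higher and 4.2% lower).

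Genes of BCAT1's own pathway had no called interaction at this precision. Of 25 tested genes of branched-chain amino acid catabolism, BCAT1 included, 0 had an interaction called by limma, and 4 were past an unadjusted p of 0.05. The list's median interaction was -0.07. Without HL-60 shNT replicate 3, 1 of these genes was called higher and 1 lower. Of 35 oxidative phosphorylation genes 0 were called and 1 was past an unadjusted p of 0.05, and of 14 genes of microRNA and short hairpin processing the same counts were 0 and 2. Each of these lists had 1 gene called higher without MOLM13 shNT replicate 1, as did oxidative phosphorylation without HL-60 shNT replicate 1. Of 31 genes of alpha-ketoglutarate enzymes and DNA methylation, 4 had a lower interaction (DNMT3L, IDH1, EGLN1 and KDM2B), against 4.2% of all genes. The count became 1 or 2 without SKM1 shBCAT1 replicate 1 or 2 or SKM1 shNT replicate 3. The call of EGLN1 was lost in 9 of the 18 fits that left out an array, that of IDH1 in 3, that of KDM2B in 2 and that of DNMT3L in 0 (limma). DNMT3L, a regulatory partner of DNA methyltransferases, fell in SKM1 from 621, 736 and 659 to 423, 419 and 464 and was dim in both other lines, while EGLN1, an oxygen-sensing dioxygenase, fell by 0.48 in SKM1 and was not called in the others (-0.09 and -0.07). Of 20 cholesterol synthesis genes 1, TMEM97, had a higher interaction (5.0%, against 2.37% of all genes). In MOLM13 14 of the 20 fell, against 1 in HL-60 and 1 in SKM1 (10.7%, 8.87% and 6.5% of all genes fell). With the replicate number as a block, 2 cholesterol synthesis genes had a higher interaction. So did 1 oxidative phosphorylation gene and 1 gene of the alpha-ketoglutarate and DNA methylation list.

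**Figure D5:**
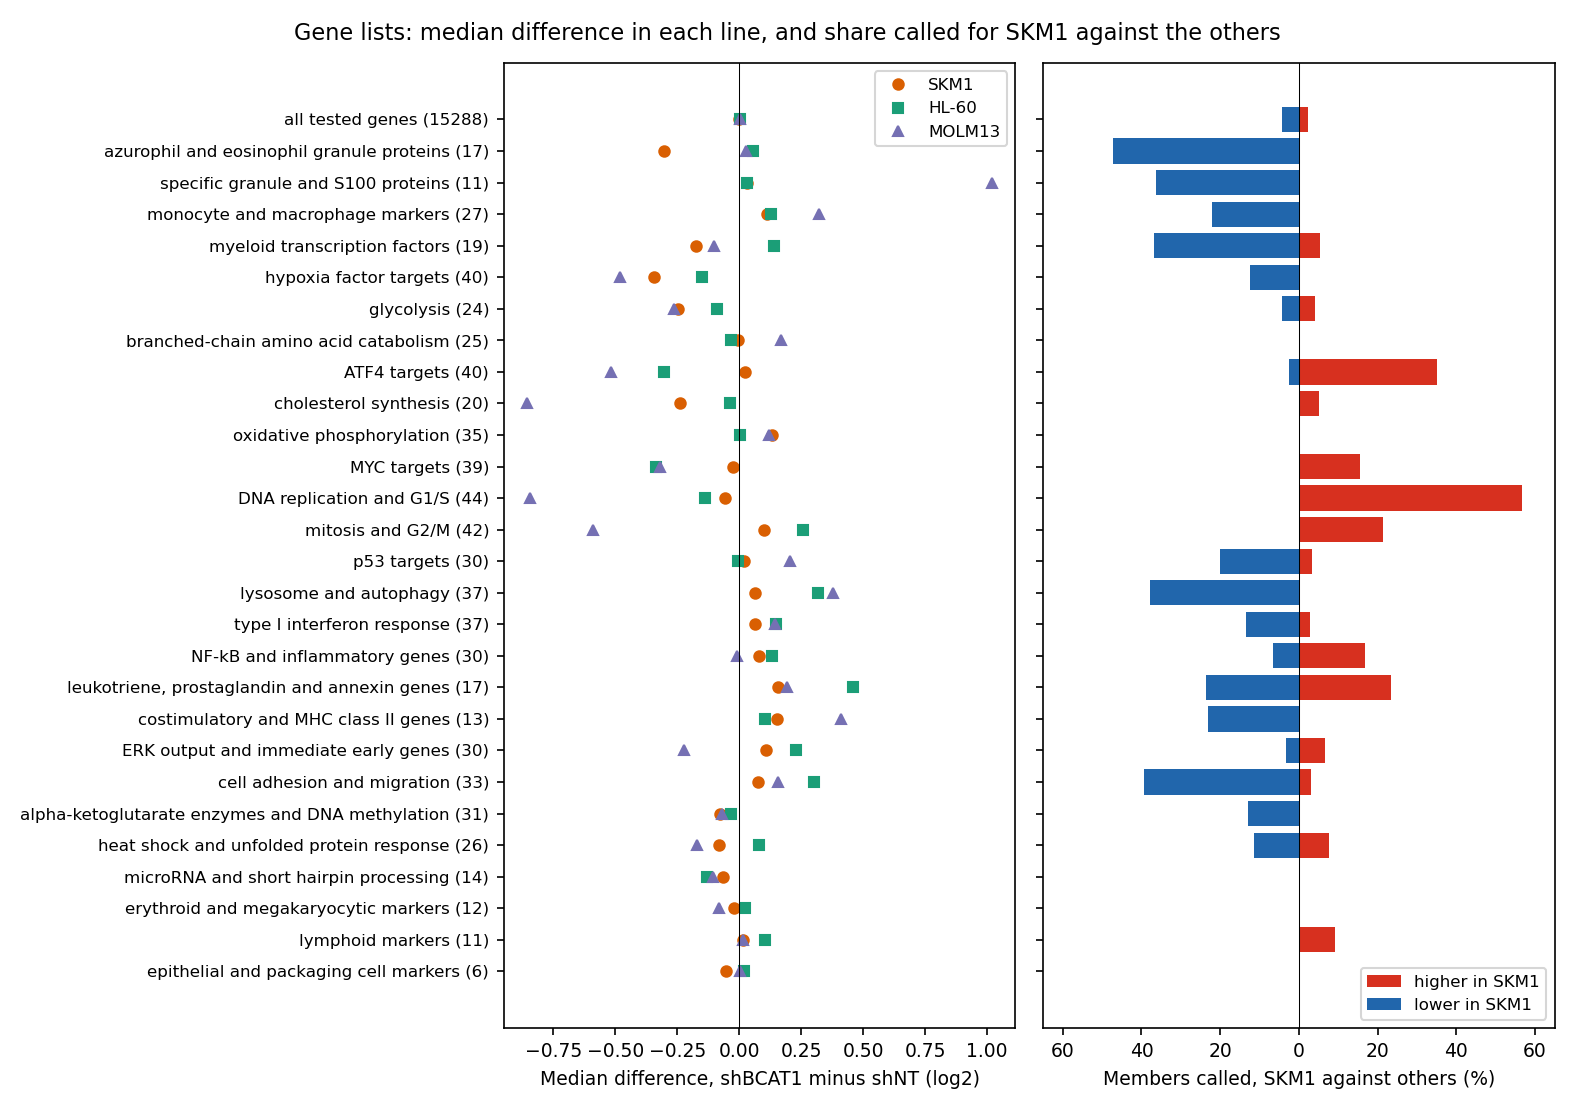
For each gene list (number of tested members in brackets), the left panel gives the median knockdown difference in SKM1, HL-60 and MOLM13 (log2) and the right panel the percentage of tested members with a called SKM1 interaction, higher in red and lower in blue. All tested genes are the top line. The granule list lies at -0.30 in SKM1 against 0.06 in HL-60 and 0.03 in MOLM13, and the replication list has 56.8% of its members called higher.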

How the data were processed

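RNA levels of 18 samples were read on Illumina BeadChips with 1 colour, 3 in each of 6 groups (3 lines with shBCAT1 or shNT), from 200 ng of total RNA per the labels' protocols. The authors deposited 1 table of probe intensities on a linear scale. How they normalized it, whether background was subtracted and with which software is not given in the sources used here. Values ran from 60.4 to 22917.5 and 15 values in 7 of 48107 probes were missing. Array medians differed by at most 0.0337 on the log2 scale, so the intensities were used as deposited. The labels give no slide or batch. If background remains in the intensities, fold changes of dim genes are understated.

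Probes were named through the platform's annotation table: 30113 had 1 symbol, 8 had several and 17986 were not listed and are unnamed here. The brightest probe stood for each of 20046 genes. A gene was tested if its values were complete and the mean of its brightest group, on the log2 scale, exceeded the table's median, which kept 15288 genes and left out 4758. Log2 intensities were fitted with limma 3.58.1 in R 4.3.3, as 6 group means, with variances moderated by eBayes (residual degrees of freedom 12, prior 10.9). Every adjusted p is limma's, after Benjamini-Hochberg adjustment over the 15288 tested genes, with a threshold of 0.05. The contrasts were the difference in each line, the SKM1 interaction, and the SKM1 difference minus that of each other line. Means ± SD are of linear intensities and folds are from log2 means.

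The genes named are BCAT1 and, past the threshold for the interaction and both pairwise differences, the 15 largest rises and 15 largest falls in SKM1 with no overlap of its arrays. Further named are 8 genes that fell and 8 that rose in both other lines and were not called in SKM1, 8 that moved in opposite directions, and up to 4 members of each list. The gene lists, 27 in number, cover myeloid, metabolic, cell cycle, stress, immune and other cell type genes, and each is reported by counts and a median. The members and lists were chosen with earlier results of these data known. ANKRD33, DDN and STMN3 were added after their values were seen.

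Same-numbered replicates of different groups were checked for shared deviations: in 4 of 9 pairs the correlation was over 0.1, with a range from -0.14 to 0.38. In MOLM13 all 3 same-number pairs were over 0.1 (0.131 to 0.382), so the numbers may pair the arrays of that line. Pairs of different numbers there were below 0, but deviations within a group sum to 0, so this is not separate evidence. In SKM1 the same-number pairs had -0.0974, -0.141 and 0.0407. Some pairs of different numbers were also over 0.1 (0.142 and 0.127 in SKM1, 0.128 in HL-60). The fit has no block, and values with the replicate number within each line as a block are given where they moved a count by over 1.5 times. Data were simulated for the 15288 genes from each line's mean, with independent noise at a pooled SD per gene. In SKM1 shBCAT1, 100 genes were changed at each size. The interaction test called 97% of genes changed by 1 on the log2 scale and 70% of those changed by 0.5. The stricter rule called 94% and 34%. Of the unchanged genes, the interaction test called 6 and the stricter rule 0. Unequal spread between lines and any pairing of arrays were not simulated. Alternatives were quantile normalization, normexp correction with an offset of 50, raising values to the table's median, other filters, the mean of all probes, trended robust variances, array weights, a replicate block, fits against 1 line, and leaving out each array. Leaving out genes with a group mean above 10000 was added after the data were seen. Python 3.11.15 and matplotlib 3.10.9 drew the figures.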

Additional observations from a re-analysis of the deposited data

Results flagged for a closer look

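The knockdown response differed between SKM1 and the mean of HL-60 and MOLM13 in 49 named genes, by limma's test of the difference itself, and each value below is that difference of log2 differences. These genes were named because this contrast passed, so the values describe the choice. Both pairwise differences had to pass too, except for genes that moved in opposite directions, which needed a call in each line. Genes that rose in SKM1 were ALOX5AP (1.74), FCMR (1.44), SPP1 (1.17), AP3B2 (1.12), GNG11 (1.03), MT1E (0.98), ADORA3 (0.96), CCL3L1 (0.92), RGS2 (0.89), MTHFS (0.82), RIPOR2 (0.81), LRP8 (0.80), CYP1A1 (0.78) and FPR2 (0.77). Genes that fell in SKM1 were PRG2 (-2.47), MPO (-1.78), BEND5 (-1.38), NUDT7 (-1.28), GPC4 (-1.19), IRF8 (-1.18), TMEM45A (-1.12), HBBP1 (-1.11), LINC00926 (-1.11), DCANP1 (-1.11) and ELANE (-1.09). Genes that fell in both other lines and were not called in SKM1 were ZNF395 (1.15), SLC7A5 (1.08), IGLL1 (0.92), BATF3 (0.91), RFC4 (0.80), ASNS (0.78), SKA3 (0.75) and UNG (0.74). Genes that rose in both other lines and were not called in SKM1 were SCG2 (-1.83), SIGLEC14 (-1.55), CYTH4 (-1.13), OLIG1 (-1.11), RHOU (-1.05), FCGR2A (-1.003), RASSF4 (-0.98) and P2RX1 (-0.98). Genes that moved in opposite directions were CCNA1 (-1.82), CSF1R (-1.55), IGFBP7 (-1.39), RNASE2 (-1.11), STING1 (-0.93), POLR3G (0.90), NFE2 (-0.87) and TAP1 (-0.80).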

How the results depend on the processing

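Of the 49 genes named for their response, 48 kept their direction and their interaction call under all alternatives that could be computed, and 0 changed direction. These genes were chosen for large values in the same data. The fits against 1 line repeat the pairwise differences that most of them had to pass, so these fits could not end those calls. UNG was no longer called with the mean of its probes. Over the 190 named genes with a called interaction, 5846 alternative values were computed, of which 5217 kept the call, 614 lost it and 15 turned direction. Calls of 106 of these 190 genes were lost under some alternative, and calls of 67 when some array was left out. With array weights the called interactions numbered 805 higher and 1116 lower (363 and 642 with equal weights), the genes different from both lines 132 and 330 (69 and 200), and the genes for SKM1 minus MOLM13 1353 and 1470 (727 and 820), and in SKM1 itself 1372 rose and 1727 fell (714 and 993). Genes that rose in SKM1 and differed from both lines numbered 36 as reported, 67 with array weights, 57 with values raised to the table's median and 20 where only genes measured in every line were tested, and those that fell numbered 135, 225, 231 and 88. Genes that fell in both other lines alone numbered 29 and, with array weights, 49, and those that moved in opposite directions 11, 19 with array weights and 17 with the replicate block. Against MOLM13 alone 727 genes were higher (363 against the mean), and BCAT1 had -0.49 and was called. Against HL-60 alone BCAT1 turned to 0.079, S100A8 to 0.054, HP to 0.17, FOXM1 to -0.031, SESN1 to 0.006, CD3D to -0.002, MCM4 to -0.12, FEN1 to -0.13, TPX2 to -0.045, UBE2C to -0.11, TP53INP1 to 0.18 and XPC to 0.078. Against MOLM13 alone IER3 turned to 0.004, IL1B to -0.24 and LGALS1 to 0.029, and with the mean of all probes ANXA2 turned to 0.022. These settings differ by construction in the line compared, and the cause for array weights and ANXA2 was not tested. Leaving out 1 array gave 221 to 525 interactions higher and 422 to 774 lower, and 46 to 96 and 150 to 249 genes different from both lines. The same ranges were 211 to 387 and 483 to 770 for SKM1 minus HL-60, and 537 to 967 and 617 to 1021 for SKM1 minus MOLM13, and BCAT1 lay between -0.24 and -0.16. The count of higher interactions was 221 without SKM1 shNT replicate 2, 226 without replicate 3, and 235 and 224 without SKM1 shBCAT1 replicates 2 and 3. The count of lower interactions was 422 without SKM1 shNT replicate 3. With the replicate number as a block, 459 were higher and 736 lower, and 91 and 243 differed from both lines. Under the other settings (normalization, background, filters, probes, trend and bright genes), higher interactions ranged from 300 to 424 and lower ones from 492 to 791. Signal over background limits dim genes: 566 of 15288 tested genes were dim in both other lines, where a response could be missed.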

Other observations

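Stress and immune lists not described above also differed for single genes. Of 30 tested p53 targets, 6 had a lower interaction in SKM1 (3 without SKM1 shNT replicate 3) and 1 a higher one. These were 20.0% and 3.33% of the list, against 4.2% and 2.37% of all genes. The higher one was TNFRSF10B, a death receptor, which rose from 466 ± 40.7 to 974 ± 14.6 in SKM1 (SD, n = 3), a 2.09-fold rise, against 1.24-fold in HL-60 and 1.5-fold in MOLM13. Its 2 dimmer probes gave interactions near 0, and with the mean of its probes it was not called (adjusted p = 0.0897, limma). Of 37 tested interferon response genes, 5 had a lower interaction and 1 a higher one (13.5% and 2.7%, against 4.2% and 2.37% of all genes). The 5 became 3 when any SKM1 array, HL-60 shBCAT1 replicate 2, HL-60 shNT replicate 2 or 3, or replicate 2 of either MOLM13 group was left out. HERC5, a ligase of the ubiquitin-like protein ISG15, fell from 1188, 1192 and 1298 to 724, 687 and 748 in SKM1, rose 1.22-fold in HL-60 and overlapped in MOLM13. IFITM1, an antiviral membrane protein, rose 1.3-fold in SKM1 and fell 1.24-fold in MOLM13. IRF9, a subunit of the interferon-activated factor, rose in all lines, by 0.32 in SKM1, 1.31 in HL-60 and 0.61 in MOLM13 on the log2 scale.

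Of 13 tested costimulatory and MHC class II genes, HLA-DRA, HLA-DMA and CD74 had a lower interaction, 3 in all, against 4.2% of all genes. HLA-DRA rose by 0.72 in HL-60 and 0.87 in MOLM13 and was not called in SKM1 (0.20). Of 26 heat shock and unfolded protein response genes, 2 had a higher interaction and 3 a lower one (7.69% and 11.5%, against 2.37% and 4.2% of all genes). These counts became 1 and 0 without SKM1 shBCAT1 replicate 3 and 1 and 1 without SKM1 shNT replicate 2. HSPA1A, whose near-identical copy HSPA1B may share its signal, rose by 0.71 in SKM1 and was not called in HL-60 (0.04) or MOLM13 (0.14). CANX, a chaperone of the endoplasmic reticulum, fell in all lines, by 1.28 in SKM1, 0.96 in HL-60 and 0.85 in MOLM13. Of 12 erythroid and megakaryocytic genes 0 were called by limma and 0 were past an unadjusted p of 0.05, and of 6 epithelial and packaging cell genes 0 were called and 1 was past it. Of 11 lymphoid genes 1 was called, CD3D, with a higher interaction (2.37% of all genes were called higher). CD3D fell by 0.81 in MOLM13 and was dim in SKM1 and HL-60. Its call was lost in 12 of the 18 fits that left out an array, and with normexp, raised values or the mean of probes.

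Of the genes that differed from both lines, 3 moved the same way in all lines and less in SKM1, and these were chosen after their values were seen. STMN3, a microtubule regulator of the stathmin family, read 148, 138 and 136 in SKM1 with shNT and 219, 247 and 228 with shBCAT1. It rose from 490 ± 28.4 to 1910 ± 134 in HL-60 and from 308 ± 17.7 to 1419 ± 41.9 in MOLM13, so SKM1 rose 1.64-fold against 3.9-fold and 4.61-fold. ANKRD33, an ankyrin repeat protein, rose 1.22-fold in SKM1, 2.14-fold in HL-60 and 2.42-fold in MOLM13. DDN, dendrin, fell 1.33-fold in SKM1, 2.54-fold in HL-60 and 2.33-fold in MOLM13.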
